A study of Mus musculus with 34 samples.

Results

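The livers described here had carried a TGFα transgene that was expressed and then turned off for 4 weeks, and they were set against control livers without a transgene. Chosen by sample title, they make up 6 of the 34 samples of the series, 3 TGFα off livers and 3 control livers. Mice of the off group had spent 4 weeks on doxycycline (dox), the drug that turns the transgene off, whereas control mice had 0 weeks on dox. Past TGFα expression and dox were therefore present together in each off liver and absent together from each control, and their parts cannot be told apart. A further 3 groups of 3 livers served for comparison: TGFα off for 12 weeks, TGFα and c-Myc off for 4 weeks, and c-Myc off for 4 weeks, each on dox for the time its transgene was off. The labels call the samples biological replicates, name no promoter or driver cell type for the transgene, and give neither age, sex nor time of day at collection. Total RNA of each liver was labelled with Cy3 and hybridised to an Agilent whole-genome oligonucleotide array together with Cy5-labelled RNA of a pooled reference, which the labels describe as liver of C57BL/6 mice of mixed gender. The value given for a gene is the log2 ratio of the liver over this reference, and a difference between groups is TGFα off minus control on the same log2 scale.

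TGFα is a ligand of the epidermal growth factor receptor (EGFR), whose signal runs through the RAS and ERK kinases to a set of rapidly induced transcription factors, and its prolonged expression in mouse liver drives hepatocyte division and tumor formation. Turning the ligand off removes that input, and the question posed by the comparison is how far the liver's transcripts then differ from those of a liver that never carried the transgene. Of the gene groups described here, the circadian clock of the liver is a feedback loop in which CLOCK and BMAL1 (Arntl) activate Per, Cry and Ciart through E-box sequences and these products repress their own activators, with feeding and glucocorticoids as timing signals.

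The array labelled TGFα off 1 stood apart from the other livers and had to be set aside for the main comparison. The median of 20 plasma protein genes, which define hepatocytes, lay at percentile 65.3 of all genes in its sample channel and at 63.6 in its reference channel, whereas it lay between 98.5 and 99.9 in the sample channels of the 31 arrays on other slides. Intestine genes did the opposite, with a median at percentile 98.1 of its sample channel against 23.8 to 58.2 on the 31 arrays, and at percentile 99.6 of its reference channel against 23.2 to 50.2. Across 22724 genes, which are not independent replicates, its sample channel correlated at r = 0.738 and 0.748 with the other TGFα off livers and at 0.735 to 0.767 with the controls, while TGFα off 2 and 3 correlated with each other at 0.986. The array labelled TGFα off 1 therefore went against its label in both channels, and both other arrays of its slide also had a reference channel with intestine genes at percentile 99.6.

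**Figure D1:**
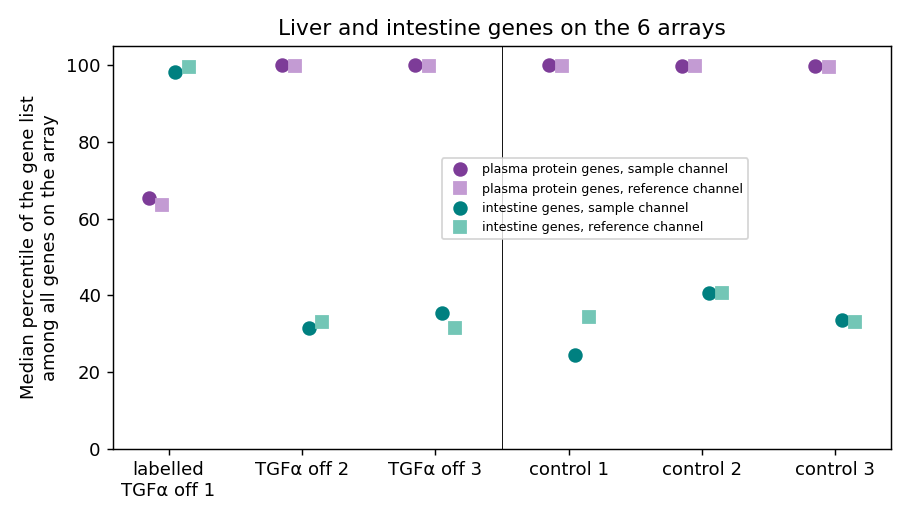
Median percentile, among all genes of an array, of 20 plasma protein genes (purple) and 20 intestine genes (green) in the sample channel (circles) and the reference channel (squares) of the 3 TGFα off arrays and, to their right, the 3 control arrays. On the array labelled TGFα off 1 the intestine genes lie at 98.1 and 99.6 and the plasma protein genes at 65.3 and 63.6. On the other 5 arrays plasma protein genes are near the top and intestine genes between 24.4 and 40.7.

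The main comparison hence took TGFα off 2 and 3 against the 3 controls (5 arrays), with limma fitted over the 31 arrays whose reference is liver, and the same test with the array labelled TGFα off 1 is given beside it. Since that array went against its label in both channels, its values do not stand for a further TGFα off liver. A probe was well above background in the sample channel at 56.6% to 67.4% of probes on these 5 arrays. Xist, the RNA that silences an X chromosome in females, and the Y-linked genes showed that the sexes were not balanced: TGFα off 2 and 3 and control 1 were high in Xist and low in Y-linked genes, and controls 2 and 3 were the reverse. TGFα off 2 and 3 also shared 1 slide and 1 scan day, and no slide or scan day held both off and control livers, so slide, day and group cannot be told apart.

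With TGFα off 2 and 3, 112 of 22724 genes differed from the controls (27 higher and 85 lower in the TGFα off livers) at an adjusted p under 0.05, which is 0.493% of the genes tested, 0.119% on the higher side and 0.374% on the lower. At an unadjusted p under 0.05 there were 2379 genes. With normexp background correction and loess there were 47 higher and 122 lower genes. The authors' deposited log2 values, whose processing is not known and which covered 20738 genes, called 75 genes, 65 higher and 10 lower in the TGFα off livers, and 21 of the 75 were among the 112. Groups did not overlap at 36.6% of all genes tested, 17.2% with the off livers higher and 19.4% with them lower, so a gene whose groups do not overlap is common here. Of 15329 genes well above background in the sample channel on all 5 arrays, groups did not overlap at 41.2%, and 28 passed the threshold (0.183%), 14 higher and 14 lower in the TGFα off livers (0.0913% each). These 28 genes, of which those outside the naming rule were picked out after their values were seen, carry most of the description that follows. The count rested on both off livers: 7 genes passed without TGFα off 2 and 37 without TGFα off 3, 73 passed without control 2 and 51 without control 3, and Per1 passed in each of these. Since TGFα off 2 and 3 share a slide, slide was also fitted as a random block, which left 35 genes. Of the 28 genes, Per1, Noct, Maff, Slc25a32, Slc38a2, Coq10b, Nuak2 and Rasgef1a passed with this block, and the others lost their call.

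With the array labelled TGFα off 1 included, 19 genes passed (0.0836%), 10 higher and 9 lower in the off livers, each with the same sign in TGFα off 2 and 3. The 7 rises with a gene symbol were Per1, Noct, Wee1, Txnip, Slc38a2, Ifrd1 and Btbd7, and the falls included Nuak2, Hyou1, Rasgef1a, Acsm2, Blcap and Usp26. Txnip, an inhibitor of thioredoxin, had log2 ratios of 0.87 on the array labelled TGFα off 1 and 0.4 and 0.46 in TGFα off 2 and 3, against -0.96, -1.83 and -2.03 in the controls (3 against 3 difference 2.18, adjusted p = 0.0367). In the main comparison, without the array labelled TGFα off 1, Txnip (adjusted p = 0.053), Blcap (0.0688), Hyou1 (0.0739) and Usp26 (0.0769) did not pass. Only 1 gene passed when TGFα off 2, TGFα off 3, control 2 or control 3 was left out of this 3 against 3 comparison, and 116 or 117 passed without the array labelled TGFα off 1 or without control 1. In the sample channel alone, the 3 arrays labelled TGFα off against the 3 controls gave 2 genes (0.0088%), Per1 higher and Acsm2 lower in the off livers, and 3358 genes at an unadjusted p under 0.05. That count was 0 without TGFα off 2 or without control 3, and 5 without the array labelled TGFα off 1, which was high in intestine genes in its sample channel as well as its reference channel.

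Genes of the circadian clock were among the larger rises, and Per1 had the smallest adjusted p of the main comparison. Per1 encodes a core repressor of the clock. Its log2 ratio was 1.36 and 1.64 in TGFα off 2 and 3, against -1.77, -0.92 and -1.42 in controls 1 to 3. Both off livers lay above the reference and all controls below it, so the groups did not overlap. The difference was 2.87 ± 0.33 (SE), a 7.29-fold rise, with an adjusted p of 0.00015 in limma. On the array labelled TGFα off 1, which went against its label, the ratio was 1.69. With that array included, the 3 against 3 difference was 2.93 (adjusted p = 2.19e-06 in limma). In the sample channel of TGFα off 2 and 3 alone, where the reference does not enter, Per1 was higher by 3.3 (adjusted p = 0.000124).

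Noct, or nocturnin, is a phosphatase with a strong daily rhythm in mouse liver. Its log2 ratio was 1.56 and 1.42 in TGFα off 2 and 3, against -1.59, -1.2 and -1.74 in the controls. The off livers were above the reference and the controls below, with no overlap, and the difference of 3.0 ± 0.56 (SE) was a 7.98-fold rise (adjusted p = 0.00824). Ciart, a repressor of CLOCK and BMAL1, had log2 ratios of 1.18 and 1.52 in TGFα off 2 and 3, against -1.41, -1.63 and -1.81 in the controls. The groups were again apart, by 2.96 ± 0.6 (SE), a 7.81-fold rise (adjusted p = 0.0159), but the call was lost with slide as a random block (adjusted p = 0.0936). The array labelled TGFα off 1 had 0.56 for Noct and 2.49 for Ciart, and in the 3 against 3 comparison Noct passed (adjusted p = 0.0367) whereas Ciart did not (0.0667).

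The promoters of 4 of the rising genes are shown because each holds the E-box hexamer CACGTG to which CLOCK and BMAL1 are known to bind. Each run is the 250 bases before the annotated start in the RefSeq annotation of build GRCm38.p6, written 5′ to 3′ on the gene's strand, with the E-box in capitals.
Per1, chr11:69098699-69098948, plus strand: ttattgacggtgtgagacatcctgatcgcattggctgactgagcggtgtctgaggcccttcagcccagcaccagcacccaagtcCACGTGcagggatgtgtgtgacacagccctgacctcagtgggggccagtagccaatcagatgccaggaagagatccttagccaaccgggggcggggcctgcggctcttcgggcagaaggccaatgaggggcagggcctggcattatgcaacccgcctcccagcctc
Ciart, chr3:95882229-95882478, minus strand: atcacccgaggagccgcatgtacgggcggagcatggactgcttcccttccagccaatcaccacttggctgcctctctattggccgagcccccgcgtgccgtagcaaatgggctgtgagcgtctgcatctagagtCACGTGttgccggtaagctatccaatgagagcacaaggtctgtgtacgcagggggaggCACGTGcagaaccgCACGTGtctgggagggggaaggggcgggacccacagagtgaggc
Gadd45b, chr10:80929841-80930090, plus strand: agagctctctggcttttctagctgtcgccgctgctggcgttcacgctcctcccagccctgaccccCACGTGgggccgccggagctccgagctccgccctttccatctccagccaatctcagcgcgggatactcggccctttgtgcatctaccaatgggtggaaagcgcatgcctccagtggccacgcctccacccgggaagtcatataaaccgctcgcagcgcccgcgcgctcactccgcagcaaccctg
Coq10b, chr1:55052520-55052769, plus strand: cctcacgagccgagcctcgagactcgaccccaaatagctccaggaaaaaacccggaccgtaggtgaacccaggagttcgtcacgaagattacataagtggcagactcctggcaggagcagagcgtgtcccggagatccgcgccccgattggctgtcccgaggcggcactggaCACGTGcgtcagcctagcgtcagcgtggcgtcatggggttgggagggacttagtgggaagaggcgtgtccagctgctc
The E-box begins 166 bases before the start in Per1, 185 in Gadd45b and 78 in Coq10b, and Ciart has 3, at 116, 58 and 44 bases. CACGTG reads the same on both strands, so a search of 1 strand covers both. The second motif searched, TGACGTCA, the site of CREB and ATF factors, was in none of these 4 windows. Of the 14 rising genes on all 5 arrays, 13 had a RefSeq window, and 6 of these 13 genes held CACGTG in at least 1 window: the 4 shown, Btbd7 and Maff. By window that was 6 of 16 (37.5%), beside 1978 of all 32851 RefSeq promoter windows of this length (6.02%). The windows of Noct and Rgs16 held no CACGTG, and neither did the other window of Per1. Of the falling genes on all 5 arrays, 1 of 10 with a window held it, Bbc3, in 1 of 14 windows (7.14%). TGACGTCA was in 1 of the 16 windows of the rising genes, that of Maff, and in 1 of the 14 of the falling genes, that of Epha2, beside 1.55% of all windows. These matches describe letters in a window and no binding was measured.

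Rgs16, a regulator that ends G-protein signalling and cycles with feeding in liver, had the largest difference among the rises with a gene symbol. Its log2 ratio was 2.19 and 2.08 in TGFα off 2 and 3, against 0.62, -4.12 and -2.86 in controls 1 to 3. The off livers were higher than all controls, but control 1 lay far above controls 2 and 3. The difference was 4.25 ± 0.92 (SE), a 19.1-fold rise (adjusted p = 0.0269, or 0.13 with the slide block), and it was 1.52 against control 1 alone. Wee1, a kinase that holds back mitosis and a clock-driven gene in mouse liver, showed a like spread, with 1.14 and 1.15 in TGFα off 2 and 3, against -0.33, -2.29 and -4.08 in the controls. Wee1 was well above background in both off livers and in 1 of 3 controls, and its difference was 3.38 ± 0.77 (SE, adjusted p = 0.0404, or 0.131 with the slide block), or 1.48 against control 1 alone. With normexp background correction and loess the difference of Wee1 was 0.74 and did not pass (adjusted p = 0.101), so its size depended on the processing of dim spots.

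Among all 21 clock and clock-output genes tested, 3 rose (Per1, Noct and Ciart) and none fell, beside 0.119% and 0.374% of all genes. With the slide block Per1 and Noct passed and Ciart did not. The list had 16 members above 0 and a median difference of 0.86, whereas 48.1% of all genes were above 0 with a median of -0.02. In 13 members the off livers lay above all controls (61.9%, beside 17.2% of all genes) and in 4 below them (19%, beside 19.4%). Usp2, a deubiquitinase under clock control, had log2 ratios of 1.2 and 1.49 in TGFα off 2 and 3, against -0.11, -2.11 and -1.97 in the controls, and its difference of 2.74 did not pass (adjusted p = 0.104). Nr1d2, a repressor in the clock loop, differed by 1.27 (adjusted p = 0.267). Arntl, which encodes the activator BMAL1, ran the other way, with -1.48 and -2.29 in TGFα off 2 and 3, against -1.3, 0.16 and -0.17 in the controls. The groups did not overlap for Arntl, but its difference of -1.45 did not pass the threshold (adjusted p = 0.477). The output factors Dbp, Tef and Hlf differed by 0.76, 1.13 and 0.86, and Per2 and Per3 by 1.09 and 1.06, none of them past the threshold.

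**Figure D2:**
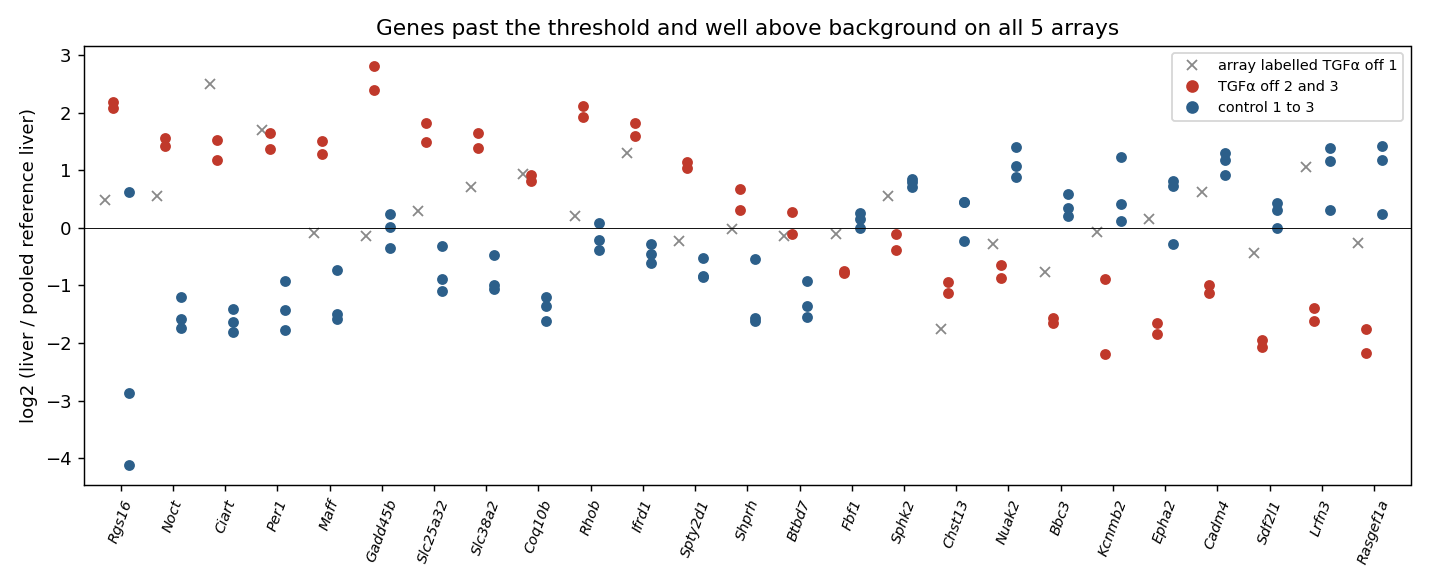
Log2 ratio of liver over pooled reference for the genes with a symbol that passed the threshold and were well above background on all 5 arrays, the largest rises at the left and the largest falls at the right. Red points are TGFα off 2 and 3, blue points are the 3 controls and grey crosses are the array labelled TGFα off 1, which was not in the test. Red points lie above all blue points in each rising gene and below them in each falling gene, and the crosses of many genes lie between the groups or within the controls.

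Maff, Gadd45b and Rhob rose as well. Maff, a small MAF transcription factor, had log2 ratios of 1.28 and 1.51 in TGFα off 2 and 3, against -0.74, -1.59 and -1.5 in the controls, which is a 6.38-fold rise (2.67 ± 0.45 SE, adjusted p = 0.00307). Gadd45b, a stress-induced activator of p38 and JNK signalling, had 2.81 and 2.39 in TGFα off 2 and 3, against -0.36, 0.24 and 0.01 in the controls, a 6.22-fold rise (2.64 ± 0.52 SE, adjusted p = 0.0123, or 0.0922 with the slide block). Rhob, an immediate early gene for a small GTPase, had 1.93 and 2.12 in TGFα off 2 and 3, against 0.08, -0.22 and -0.39 in the controls, a 4.59-fold rise (2.2 ± 0.46 SE, adjusted p = 0.0209, or 0.102 with the slide block). In all 3 genes the controls lay close together and well below both off livers, while the array labelled TGFα off 1 gave -0.09, -0.15 and 0.21, at or near the controls for Gadd45b and Rhob. A second probe of Gadd45b differed by 1.38 and did not pass (adjusted p = 0.172).

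Fos, the founding immediate early gene, was not past the threshold, with log2 ratios of 1.74 and 1.45 in TGFα off 2 and 3, against -1.78, -1.31 and -3.23 in the controls (difference 3.7, adjusted p = 0.0649). Of 19 immediate early genes tested, 1 rose (Gadd45b, whose call was lost with the slide block) and none fell, 16 were above 0 and the median difference was 0.68. In 9 of the 19 both off livers exceeded all controls (47.4%, beside 17.2% of all genes), and in none were both below them (beside 19.4%). Fosl2, a partner of JUN, differed by 1.55 (adjusted p = 0.101), Egr1, a zinc finger factor downstream of ERK, by 1.73 (0.538) and Jun by 0.68. Values of this list were spread widely, and no member other than Gadd45b passed. Maff and Rhob were not on the list.

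Slc38a2, Slc25a32 and Coq10b were among the rises that passed with the slide block too. Slc38a2, which encodes the amino acid transporter SNAT2, had log2 ratios of 1.65 and 1.38 in TGFα off 2 and 3, against -0.47, -0.99 and -1.07 in the controls, a 5.12-fold rise (2.36 ± 0.38 SE, adjusted p = 0.00214). Slc25a32, a mitochondrial carrier of folate, had 1.82 and 1.49 in TGFα off 2 and 3, against -0.31, -0.89 and -1.09 in the controls, a 5.36-fold rise (2.42 ± 0.39 SE, adjusted p = 0.00203). Coq10b, a coenzyme Q binding protein of mitochondria, had 0.92 and 0.81 in TGFα off 2 and 3, against -1.21, -1.36 and -1.61 in the controls, a 4.78-fold rise (2.26 ± 0.4 SE, adjusted p = 0.00546). For each of the 3 the groups were separate. The array labelled TGFα off 1, which went against its label, had 0.7 for Slc38a2, 0.29 for Slc25a32 and 0.94 for Coq10b, above the controls. Of the 3 genes Slc38a2 passed in the 3 against 3 comparison, which includes that array (adjusted p = 0.0237). The other 3 probes of Slc38a2 differed by 1.42, 1.27 and 0.55 and did not pass.

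Slc38a2 was the 1 member to pass among 20 targets of the amino acid stress factor ATF4, whose median difference was 0.07, and no other member passed. The remaining rises on all 5 arrays were Ifrd1, Spty2d1, Shprh and Btbd7. Ifrd1, a stress-induced co-regulator of transcription, had log2 ratios of 1.81 and 1.6 in TGFα off 2 and 3, against -0.61, -0.29 and -0.46 in the controls, a 4.47-fold rise (2.16 ± 0.42 SE, adjusted p = 0.0123, or 0.0663 with the slide block). Spty2d1, a histone chaperone, rose 3.54-fold (adjusted p = 0.0217) and Btbd7, a BTB domain protein, 2.57-fold (adjusted p = 0.0176), with 0.0697 and 0.0797 under the slide block. With normexp background correction and loess their log2 differences were smaller, 0.81 and 0.65 beside 1.82 and 1.36, and Btbd7 did not pass (adjusted p = 0.0782). Shprh, a ubiquitin ligase of DNA repair, rose 3.3-fold at its brightest probe (adjusted p = 0.0404, or 0.103 with the slide block), but its other probes gave -1.64, -0.28 and -3.56, so its direction depended on the probe.

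Rises that rested on dim spots are given apart. Kcnab1, a potassium channel subunit, had log2 ratios of 3.03 and 2.54 in TGFα off 2 and 3, against 0.8, -0.23 and -1.98 in the controls (3.26 ± 0.69 SE, adjusted p = 0.0238), and was well above background in 1 of 3 controls. It lost its call with the slide block (adjusted p = 0.12) and with normexp background correction and loess (difference 0.92, adjusted p = 0.101). Hbb-bh1, an embryonic globin, had 3.5 and 3.52 in TGFα off 2 and 3, against 0.56, 0.69 and 0.03 in the controls, and was well above background in the off livers only. Since no control measured it, Hbb-bh1 was at least 4.02-fold higher in the off livers (adjusted p = 0.0423), a bound set against the dimmest signal that counts as above background. Hbb-bh1 lost its call with the slide block (adjusted p = 0.274) and with normexp background correction and loess (0.323), and its reference channel was higher by 1.98. Against the same controls it also passed in TGFα off for 12 weeks (4.33), c-Myc off for 4 weeks (3.97) and replicates 1 and 2 of TGFα and c-Myc off for 4 weeks (3.44). Replicate 3 of the last group had 0.3, within the range of the controls. Tigd5 and Lipo3 passed with bounds of at least 1.13-fold and 1.08-fold, and Nt5c3b was well above background in 1 off liver and 1 control. With the slide block Tigd5 (adjusted p = 0.142), Lipo3 (0.0922) and Nt5c3b (0.0954) lost their calls. The array labelled TGFα off 1 gave 0.0 for Hbb-bh1 and -0.11 for Kcnab1, within the range of the controls for Kcnab1 and just below it for Hbb-bh1.

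Falls among genes measured on all 5 arrays were of mixed function. Lrfn3, a cell adhesion protein known from synapses, had log2 ratios of -1.61 and -1.39 in TGFα off 2 and 3, against 0.31, 1.16 and 1.38 in the controls, 5.47-fold lower (-2.45 ± 0.46 SE, adjusted p = 0.00895, or 0.0771 with the slide block). Nuak2, a kinase of the AMPK family, had -0.87 and -0.65 in TGFα off 2 and 3, against 0.88, 1.07 and 1.41 in the controls, 3.68-fold lower (-1.88 ± 0.34 SE, adjusted p = 0.00682, or 0.0161 with the slide block). Off livers lay below the reference and controls above it in both genes. Nuak2 also passed with the array labelled TGFα off 1, where its ratio was -0.28 (3 against 3 difference -1.72, adjusted p = 0.0306), whereas Lrfn3, at 1.05 on that array, did not (adjusted p = 0.155). Bbc3, which encodes the pro-apoptotic p53 target PUMA, had -1.57 and -1.65 in TGFα off 2 and 3, against 0.59, 0.34 and 0.2 in the controls, 3.97-fold lower (-1.99 ± 0.42 SE, adjusted p = 0.024, or 0.0797 with the slide block). Bbc3 was the 1 member to pass of 17 p53 targets, with a list median of 0.05. Of the 17, 6 had both off livers above all controls (35.3%, beside 17.2% of all genes) and 3 below (17.6%, beside 19.4%). Cdkn1a, the p53 target that encodes the cell cycle inhibitor p21, was higher by 2.54 without passing (adjusted p = 0.0801).

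Of the genes of protein folding in the endoplasmic reticulum (ER), 1 fell. Sdf2l1, a component of the ER chaperone complex, had log2 ratios of -2.07 and -1.94 in TGFα off 2 and 3, against -0.01, 0.43 and 0.3 in the controls. All off values were below all control values, and the gene was 4.75-fold lower (-2.25 ± 0.45 SE, adjusted p = 0.0159), a call that was lost with slide as a random block (adjusted p = 0.11). Of 19 ER chaperone and unfolded protein response genes tested, 1 fell (Sdf2l1) and none rose, 15 were below 0, 4 were above 0 and the median was -0.54. Both off livers lay below all controls in 12 (63.2%, beside 19.4% of all genes) and above them in 3 (15.8%, beside 17.2%). Hyou1, an ER chaperone of the HSP70 family, had -1.51 and -0.72 in TGFα off 2 and 3, against 0.09, 1.31 and 0.76 in the controls. Its groups were apart, and its difference of -1.84 did not pass (adjusted p = 0.0739), but with the array labelled TGFα off 1, at -1.68, the 3 against 3 difference of -2.03 did (adjusted p = 0.0367). Dnajb11, an ER co-chaperone, differed by -1.12 (adjusted p = 0.152), Creld2 by -1.59 (0.235) and Hspa5, the ER chaperone BiP, by -0.51 (0.656). Herpud1, a part of the machinery that removes misfolded ER proteins, was on the other side at 1.59 (adjusted p = 0.141).

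Epha2, a receptor tyrosine kinase, had log2 ratios of -1.85 and -1.66 in TGFα off 2 and 3, against -0.28, 0.72 and 0.82 in the controls, 4.52-fold lower (-2.18 ± 0.51 SE, adjusted p = 0.0485). Sphk2, which makes sphingosine 1-phosphate, had -0.11 and -0.39 in TGFα off 2 and 3, against 0.84, 0.71 and 0.8 in the controls, 2.05-fold lower (-1.04 ± 0.24 SE, adjusted p = 0.0485). Chst13, a chondroitin sulfotransferase, differed by -1.26 ± 0.29 (SE, adjusted p = 0.0404). In each of these 3 genes the groups did not overlap, but the adjusted p was near the threshold, and with the slide block it was 0.155 for Epha2, 0.142 for Sphk2 and 0.115 for Chst13. Acsm2, a mitochondrial enzyme that activates medium-chain fatty acids, fell in the ratio and in the sample channel. Its log2 ratio was -3.23 and -1.76 in TGFα off 2 and 3, against 2.64, 2.1 and 3.09 in the controls (-5.11 ± 1.03 SE, adjusted p = 0.0159). The groups did not overlap, and the sample channel of TGFα off 2 and 3 was lower by 5.03 on the log2 scale (adjusted p = 0.0428). No fold is given, since Acsm2 was well above background in 1 of the 2 off livers, against all 3 controls. Its difference was -2.47 with normexp background correction (adjusted p = 0.00105), and it lost its call with slide as a random block (adjusted p = 0.0948).

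The size of several falls, and the sign of some, rested on the reference channel. Over the 14 rises on all 5 arrays the median difference was 2.39 in the ratio, 2.22 in the sample channel and -0.17 in the reference channel, and all 14 had the same sign in the sample channel. Over the 14 falls on all 5 arrays the medians were -2.06, -0.98 and 0.5, with 12 of the same sign in the sample channel. Rasgef1a, an exchange factor for RAS proteins, is an example: its ratio was lower by 2.91 on the log2 scale in the off livers (adjusted p = 0.00307), while its sample channel was higher by 0.32 and its reference channel by 3.24. Cadm4, a cell adhesion protein, fell in the ratio (-2.18, adjusted p = 0.047) with -0.46 in the sample channel and 1.74 in the reference channel. Kcnmb2, Pex11c and Fbf1 also moved in both channels, by -0.68, -1.02 and -0.17 in the sample channel and by 1.46, 0.86 and 0.75 in the reference channel. For Nuak2, Bbc3, Sdf2l1, Epha2 and Lrfn3, by contrast, the reference channel differed by at most 0.34 in size and the sample channel by -2.03, -2.34, -2.06, -1.94 and -2.46.

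Most of the 85 falls were of this kind. In 37 of them the sample channel was well above background on none of the 5 arrays, and their median difference was -3.57 in the ratio, -0.41 in the sample channel and 2.87 in the reference channel. Another 25 were measured on no array of 1 group, with medians of -3.64, -1.7 and 2.05. Plcb4, a phospholipase C, had the largest ratio difference among genes with a symbol, with -5.49 and -4.93 in TGFα off 2 and 3, against 1.1, -0.07 and 0.85 in the controls (-5.83 ± 0.84 SE, adjusted p = 0.00112). It was well above background in no off liver and 2 controls, so it was at least 1.28-fold lower, with -2.97 in the sample channel and 2.87 in the reference channel. Insm1, a zinc finger factor of endocrine cells, differed by -5.13 in the ratio (adjusted p = 0.00203), by -0.35 in the sample channel and by 4.99 in the reference channel, and no fold is given since no array measured it. Hmx2, Klk1b24 and Sec1 were alike, at -4.73, -4.27 and -4.25 in the ratio and 0.24, 0.7 and -0.11 in the sample channel. Wnt5a, a secreted signal of the WNT family, and Cnih3 differed by -4.37 and -4.21, with bounds of at least 1.03-fold and 1.08-fold lower. In TGFα off 2 and 3 Cnih3 had -4.31 and -3.72. On the same slide, TGFα and c-Myc off 1 and 2 had -4.75 and -4.53 for it, and replicate 3, on another slide, had 0. D030005H02Rik, another fall, differed within the slide, with -3.21 and -2.2 in TGFα off 2 and 3, against 2.21 and 1.38. The background setting of the scanner software also differed between scan days. Which of these falls belong to the liver samples, the slide or the scan day was not tested.

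**Figure D3:**
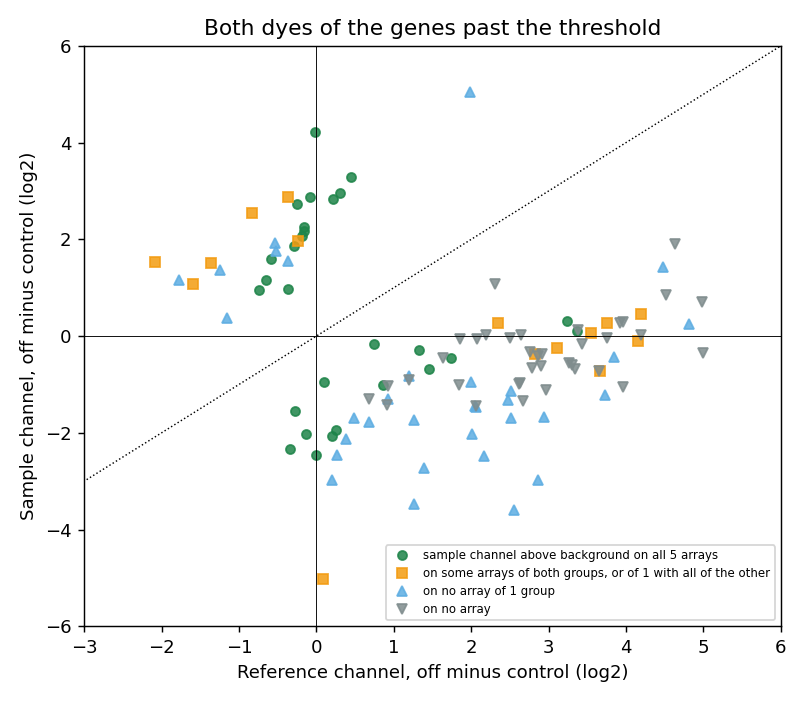
Difference between TGFα off livers and controls in the sample channel (vertical axis) against that in the reference channel (horizontal axis), both in log2 after scaling each array to its 75th percentile, for the genes past the threshold. The dotted line marks equal change in both channels. The 14 rises measured on all 5 arrays (green, upper left and centre) change in the sample channel with a reference change between -0.74 and 0.45, whereas most falls measured on no array (grey) lie to the right, with a reference change between 0.68 and 4.99.

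No gene of the TGFα pathway itself passed the threshold. The 2 probes of Tgfa differed by 0.43 ± 0.56 (SE) and -0.32 ± 0.52 (SE), with log2 ratios of -0.28 and -0.43 in TGFα off 2 and 3, against -0.64, -0.45 and -1.26 in the controls, at the first. Neither passed (adjusted p = 0.855 and 0.893), and the files do not say whether these probes lie in the transgene's transcript, so they do not check its shutdown. The 6 probes of Egfr, the receptor, differed by -0.29 to -3.29, all lower in the off livers and none past the threshold (adjusted p 0.191 to 0.967). The 3 probes of Myc, an ERK-responsive growth regulator, differed by 1.15, 1.19 and -0.24, none past the threshold. Of 15 EGF receptor family members and ligands tested, none passed, with 9 above 0, 6 below 0 and a median of 0.07. Nrg4, a ligand of ERBB4, differed by 2.21 (adjusted p = 0.182) and Errfi1, a feedback inhibitor of EGFR, by 1.78 (0.272). Of 13 ERK feedback and target genes none passed either, with a median of 0.48, which took in Spry1, a feedback inhibitor, at 1.22 and Phlda1 at -1.91 (adjusted p = 0.249).

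Genes induced by glucocorticoids stood higher as a list without a call. None of the 12 tested passed, but 11 were above 0 (91.7%, beside 48.1% of all genes) and the median was 1.93 (1.68 in the sample channel). In 9 both off livers exceeded all controls (75%, beside 17.2% of all genes). Fkbp5, a co-chaperone of the glucocorticoid receptor, had log2 ratios of 2.54 and 3.34 in TGFα off 2 and 3, against 0.6, -1.1 and -0.73 in the controls (difference 3.35, adjusted p = 0.0717). Igfbp1, a secreted binder of insulin-like growth factors, had 1.48 and 0.64 in TGFα off 2 and 3, against -2.23, -3.42 and -4.09 in the controls (difference 4.31, adjusted p = 0.155). Both genes separated the groups, and neither passed. Mt1, a metallothionein, had 2.96 and 2.93 in TGFα off 2 and 3, against 2.87, -1.53 and -1.23 in the controls, so that control 1 matched the off livers and its difference of 2.91 did not pass (adjusted p = 0.253). Sgk1, a kinase under glucocorticoid control, differed by 2.51 (adjusted p = 0.29). Per1 is itself known as a target of the glucocorticoid receptor, though it was not on this list.

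No sex-biased liver gene passed the threshold. Of 22 female-biased liver genes 19 were above 0 with a median of 2.26, and in 10 both off livers exceeded all controls (45.5%, beside 17.2% of all genes). Of 26 male-biased genes 21 were below 0 with a median of -1.73, and in 18 both off livers lay below all controls (69.2%, beside 19.4% of all genes). With a sex score in the fit, Y-linked genes averaged minus Xist, the medians became 1.19 and -0.62. Acot3, a peroxisomal acyl-CoA thioesterase, had log2 ratios of 1.74 and 1.0 in TGFα off 2 and 3, against -0.2, -3.34 and -3.43 in controls 1 to 3, so control 1 lay nearer to the off livers than to controls 2 and 3 (difference 3.69, adjusted p = 0.287). Elovl3, a fatty acid elongase high in males and clock-dependent, had -3.19 and -2.97 in TGFα off 2 and 3, against -1.57, 2.25 and 1.94 in the controls (adjusted p = 0.171). The 5 major urinary protein genes tested were all below all controls, with a median of -3.18 (-1.83 with the sex score). Mup5 had -3.29 and -4.57 in TGFα off 2 and 3, against 0.13, 0.54 and 1.12 in the controls, where control 1 sided with the other controls (difference -4.53, adjusted p = 0.134), and these paralogs may share signal between probes. With the sex score 70 genes passed in limma, 66 of them among the 112. Of the genes measured on all 5 arrays, 8 higher and 5 lower passed, beside 14 and 14 without the score. The rises that stayed were Per1, Noct, Maff, Slc38a2, Slc25a32, Coq10b, Gadd45b and Ifrd1, and the falls were Nuak2, Bbc3, Sdf2l1, Lrfn3 and Rasgef1a. The others lost their call, among them Ciart (adjusted p = 0.0543), Rgs16 (0.0879), Rhob (0.0693), Btbd7 (0.0512), Spty2d1 (0.0693) and Shprh (0.0906). Falls lost included Epha2 (0.125), Sphk2 (0.122), Chst13 (0.122), Cadm4 (0.144) and Kcnmb2 (0.0825). Control 1 was also used as the only control, a choice made after seeing the data, in which this 1 sample is assumed to vary like the other groups. Per1, Noct, Ciart, Maff and Gadd45b then differed by 3.26, 3.08, 2.76, 2.13 and 2.96, of which Per1 passed (adjusted p = 0.000623) and the other genes did not (0.142 to 0.345). That comparison called 28 genes, 15 of them among the 112.

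No marker on the blood cell lists passed. Hbb-bh1, the embryonic globin that passed as a rise, was not on these lists. Of 12 neutrophil markers tested, 9 were above 0 and 3 below. In 9 both off livers lay above all controls (75%, beside 17.2% of all genes) and in 2 below them (16.7%, beside 19.4%). The median of the 12 markers was 1.79, or 0.65 with normexp background correction and loess. Their summed level in the sample channel was 13.7 to 15 in the off livers and 2.97 to 5.15 in the controls, in multiples of each array's 75th percentile. Camp, a granule peptide of neutrophils, had log2 ratios of 5.38 and 5.44 in TGFα off 2 and 3, against 1.96, 1.23 and -0.09 in the controls (difference 4.37, adjusted p = 0.228). S100a8, a calcium-binding protein of neutrophils, had 4.01 and 4.03 in TGFα off 2 and 3, against 1.78, 1.32 and 1.11 in the controls (difference 2.62, adjusted p = 0.343). Elane, a defining protease of immature neutrophils, was well above background on none of the arrays, and 5 of the 12 markers were so on all 5. Kupffer cell and macrophage markers had a median of 0.48 over 20 genes, with a summed level of 158 to 186 in the off livers and 96.7 to 158 in the controls, and erythroid markers one of 0.15 over 7, with 83.4 to 86.3 in the off livers and 51.2 to 67.2 in the controls. T and B cell markers had a median of -0.04 over 17 genes. The part of other cells in the rises described above was not tested, and in whole liver more cells of a type and more RNA per cell cannot be told apart.

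Further lists of hepatocyte function, growth and inflammation held no gene past the threshold. Plasma protein genes had a median of 0.27, acute phase genes of 0.44, cytochrome P450 and drug metabolism genes of 0.43, cell cycle genes of -0.05 and tumor and fetal markers of 0.02. Fatty acid synthesis genes had a median of 0.36 over 17 genes, none past the threshold, with Thrsp, a lipogenic regulator, at 1.46 and 0.82 in TGFα off 2 and 3, against -0.15, -0.53 and -1.29 in the controls (difference 1.8, adjusted p = 0.0632). Scd1, the main desaturase of liver, differed by 2.23 (adjusted p = 0.249). Pericentral genes under beta-catenin control had a median of -0.71, with both off livers below all controls in 8 of 15 (53.3%, beside 19.4% of all genes). All 12 MHC and antigen presentation genes were below 0, but by a median of only -0.35 and with none past the threshold. Vcam1, a vascular adhesion molecule among the 20 chemokine and NF-kB targets, had 0.98 and 1.49 in TGFα off 2 and 3, against -1.27, -0.56 and -1.34 in the controls (difference 2.29, adjusted p = 0.0717). Osgin1, a target of NRF2, differed by -2.77 (adjusted p = 0.0597).

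**Figure D4:**
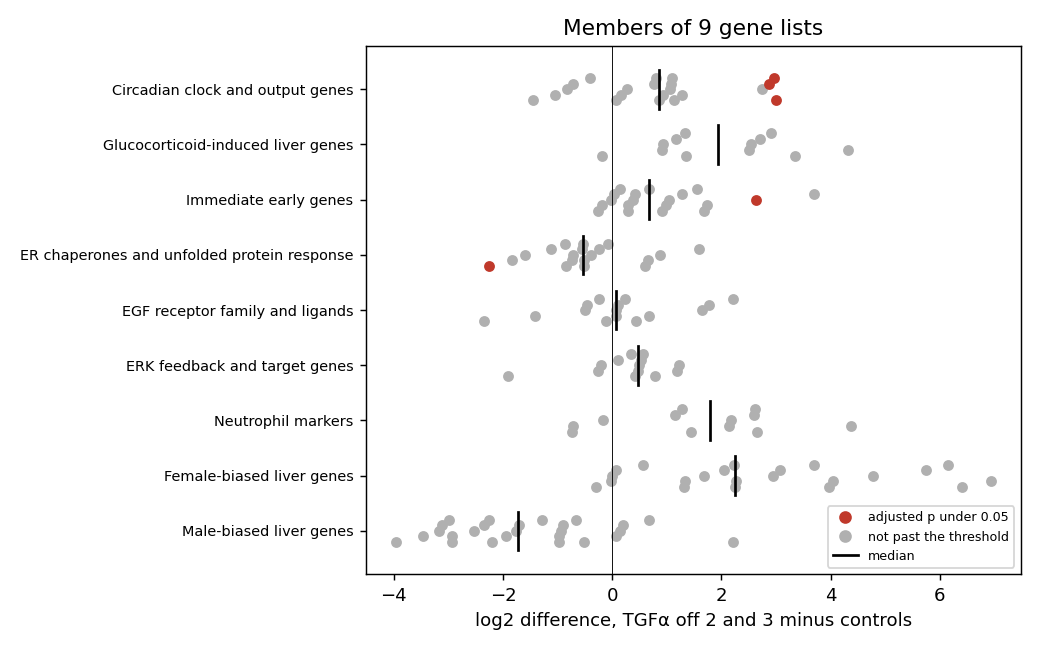
Difference in log2 ratio, TGFα off 2 and 3 minus the 3 controls, of each tested member of 9 gene lists, with the list median as a black bar. Red points passed the threshold over all genes (3 clock genes, Gadd45b among immediate early genes and Sdf2l1 among ER genes) and grey points did not. Glucocorticoid-induced, neutrophil and female-biased genes lie mostly to the right of 0 and male-biased and ER genes mostly to the left.

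The other off groups showed how far the same genes differed from control elsewhere. These comparisons share the 3 control livers, so their values are given side by side and no likeness is computed from them. Per1 differed from control by 2.87 in TGFα off for 4 weeks, 2.82 in TGFα off for 12 weeks (adjusted p = 2.36e-05), 1.18 in TGFα and c-Myc off for 4 weeks (0.0688, replicates 1 and 2) and 2.4 in c-Myc off for 4 weeks (0.000518). Noct differed by 3.0, 2.11, 1.33 and 1.28 in the same order, and Ciart by 2.96, 2.25, 1.25 and 1.76, of which only the values of TGFα off for 4 weeks passed. Maff differed by 2.67, 2.07 (adjusted p = 0.0271), 2.01 (0.0178) and 2.07 (0.0651). Gadd45b differed by 2.64, 2.26 (adjusted p = 0.0421), 2.01 (0.0206) and 1.96 (0.169). Sdf2l1 differed by -2.25, -1.35, -1.64 (adjusted p = 0.0434 in TGFα and c-Myc off) and -0.79. The values of TGFα and c-Myc off are those of replicates 1 and 2, which share the slide of TGFα off 2 and 3. Replicate 3, on another slide, had 0.24 for Gadd45b, within the range of the controls, -0.04 for Sdf2l1, just below the lowest control, and 0.07 for Maff and -0.43 for Per1, above all controls. For Per1, Noct, Ciart and Maff each liver of the 4 off groups, the array labelled TGFα off 1 left aside, lay above all 3 controls. For Sdf2l1 each of these livers lay below all 3 controls, the nearest at -0.04 against -0.01 in control 1. Nuak2 differed by -1.88, -0.86, -0.21 and -1.31, and none of the other 3 groups passed for it. Numbers of genes past the threshold against control were 112 in TGFα off for 4 weeks, 33 in TGFα off for 12 weeks, 408 in replicates 1 and 2 of TGFα and c-Myc off for 4 weeks, and 6 in c-Myc off for 4 weeks.

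**Figure D5:**
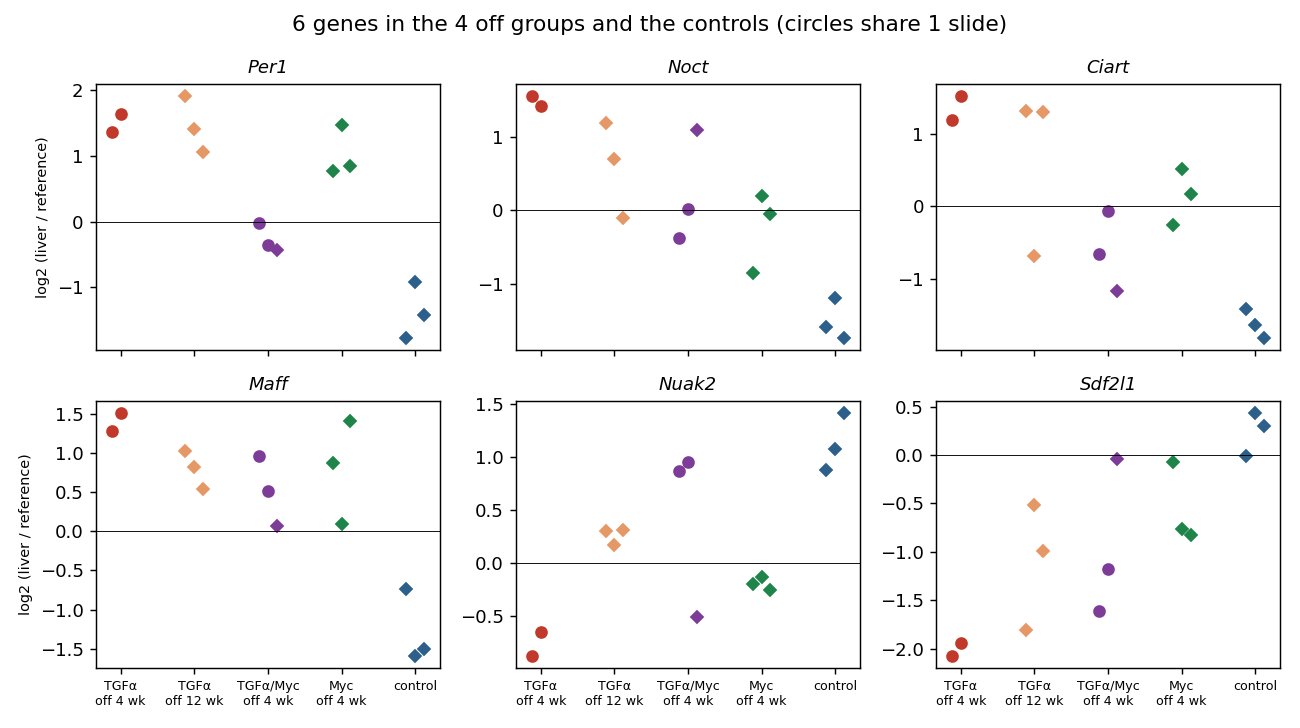
Log2 ratio of liver over reference for 6 genes in TGFα off for 4 weeks (replicates 2 and 3), TGFα off for 12 weeks, TGFα and c-Myc off for 4 weeks, c-Myc off for 4 weeks and, at the right, control livers. Circles are the 4 arrays that share 1 slide. For Per1, Noct, Ciart and Maff every off liver shown lies above every control, and for Sdf2l1 every off liver shown lies below every control.

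Direct tests between off groups bear on whether TGFα off for 4 weeks differed from them. Against c-Myc off for 4 weeks, 89 genes passed (0.392% of 22722), 3 higher and 86 lower in TGFα off livers, and Per1 (0.47, adjusted p = 0.716), Noct (1.72, 0.245), Maff (0.61, 0.738) and Nuak2 (-0.57, 0.656) were not among them. The count was 3 without TGFα off 2, 33 without TGFα off 3, 57 without c-Myc off 2 and 53 without c-Myc off 3. Of the 28 genes described above, Rasgef1a (-3.57, adjusted p = 0.000586), Fbf1 (-1.02, 0.0161) and Kcnmb2 (-2.19, 0.0286) passed, and these are genes whose ratio moved with the reference channel. Cggbp1, which binds CGG repeats, was the 1 rise measured on all arrays, with 0.36 and 0.18 in TGFα off 2 and 3, against -1.6, -1.92 and -1.06 in c-Myc off livers (1.8, adjusted p = 0.0384). Its sample channel averaged 0.08 in TGFα off 2 and 3 and -0.55 in c-Myc off livers, so much of the ratio difference lay in the reference channel. Against TGFα off for 12 weeks, 290 genes passed (1.28%), 145 on each side, of which 76 higher and 45 lower were measured on all arrays. The count was 6 without TGFα off 2 at 4 weeks, 26 without TGFα off 3 at 4 weeks, and 114, 151 and 141 without TGFα off 1, 2 and 3 at 12 weeks. Coq10b was among them, with 0.92 and 0.81 in TGFα off 2 and 3 at 4 weeks, against -1.28, -1.19 and -0.17 at 12 weeks (1.74, adjusted p = 0.0289), whereas Per1 differed by 0.04 (0.98). Fbxl5, a ubiquitin ligase subunit that senses iron, had 0.92 and 0.45 at 4 weeks, against -1.73, -2.08 and -2.78 at 12 weeks (2.88, adjusted p = 0.00787).

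The slide shared by TGFα off 2 and 3 also held replicates 1 and 2 of TGFα and c-Myc off for 4 weeks, which gave a comparison within 1 slide and day. No gene passed there, and 1156 had an unadjusted p under 0.05. Per1 had 1.36 and 1.64 in TGFα off 2 and 3, against -0.02 and -0.36 in TGFα and c-Myc off 1 and 2 on that slide (1.69, adjusted p = 0.197). Nuak2 differed by -1.67 (adjusted p = 0.0511), with 0.87 and 0.95 in TGFα and c-Myc off livers. Rasgef1a differed by 0.19 and Cadm4 by 0.62 within the slide, beside -2.91 and -2.18 against the controls, which lay on other slides. Maff and Gadd45b differed by 0.67 and 0.63 within the slide and did not pass.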

How the data were processed

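RNA of 34 livers and tumors was measured on 2-colour Agilent arrays, of which 6 are compared here. Per the file headers, the deposited processed intensity of each channel came from Agilent Feature Extraction, which subtracted background, removed spatial trends and balanced the dyes by lowess, with a background setting that differed between scan days, and the deposited log10 ratio is red (reference) over green (liver). The authors' deposited series matrix holds log2 values; the submitters' processing notes name limma without a version, and how the authors centred these values stays unknown. They correlated with the scanner ratios at r = 0.508 to 0.776 on the 6 arrays.

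From the scanner files, minus the log10 ratio times 3.322 gave log2 of liver over reference. Control spots and outlier spots were left out and spots of a probe averaged. A probe had to be well above background in the liver channel of 3 or more arrays (32773 of 41174), named through RefSeq for 22315, and each gene was read at its brightest kept probe. Sample-channel values were log2 of processed intensity less the 75th percentile of the array.

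R 4.3.3 with limma 3.58.1 (lmFit with 1 coefficient per group, eBayes), statmod 1.5.0 and the data.table package (1.17.8) were used, with Benjamini-Hochberg adjustment over all genes tested. P-values rest on a spread pooled over all groups of a fit, tumors included, and moderated by eBayes, not on the compared livers alone. TGFα off 2 and 3 share a slide, so their agreement can include slide effects. In data simulated on the comparison of 2 against 3 over 22724 genes, 10% of genes changed by 1 on the log2 scale were recovered, 58% at 2, 80% at 3 and 96% at 4, and 9 of 131 called genes were unchanged. The simulated arrays were independent, whereas TGFα off 2 and 3 share a slide and the within-slide correlation was 0.25. These rates therefore need not hold for the real arrays. The members and 45 gene lists were chosen with earlier results of these data known. Genes named by rule were Tgfa, Egfr and Myc, the 12 largest rises and falls that passed without overlap, up to 12 genes a side of the 3 against 3 comparison, the 5 largest a side against c-Myc off and TGFα off for 12 weeks, and up to 4 members of each list by smallest p. The number of arrays limits the precision. Replicate numbers did not pair livers: deviations of same-numbered livers correlated at 0.03 and 0.15. Alternatives were another background correction, filter, normalization, channel, block and sex term, and leaving out each array.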

Additional observations from a re-analysis of the deposited data

Results flagged for a closer look

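Several genes stood out because TGFα off for 4 weeks differed from another off group in a direct test. Against c-Myc off for 4 weeks, with TGFα off first, the log2 difference was 2.5 for Defb13, 2.23 for Gpr63 and 1.8 for Cggbp1 on the higher side. On the lower side it was -6.76 for Ccl20, -5.83 for Mcoln3, -5.23 for Plcb4, -4.98 for Hmx2 and -4.87 for Insm1. Against TGFα off for 12 weeks it was 3.08 for Agtr1b, 3.02 for Rab8b, 2.88 for Id4, 2.88 for Fbxl5 and 2.69 for Dync2li1. On the lower side it was -5.22 for Plcb4, -4.97 for Insm1, -4.51 for Aldh1l2, -4.3 for Efhc2 and -4.22 for Hmx2. Of these genes Cggbp1 and Fbxl5 were measured on all arrays of both groups. The sample channel of Cggbp1 averaged 0.08 in TGFα off and -0.55 in c-Myc off, closer together than its ratios. The sample channel of Hmx2 averaged -4.98 in TGFα off for 4 weeks, -5.32 in c-Myc off for 4 weeks and -5.51 in TGFα off for 12 weeks. That of Insm1 averaged -7.05 in TGFα off for 4 weeks, -7.58 in c-Myc off and -5.82 in TGFα off for 12 weeks. Insm1 was well above background on no array of these 3 groups, and Hmx2 on none of the TGFα off arrays, so these levels have no order.

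The array labelled TGFα off 1 stood out for a signal outside the liver measurement. The median percentile of intestine genes on it was 98.1 in the sample channel and 99.6 in the reference channel. The cause was not tested.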

How the results depend on the processing

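The 112 genes past the threshold in TGFα off 2 and 3 became 169 with normexp background correction and loess (63 shared), 35 with slide as a random block, 338 without the filter on dim probes, 70 with the sex score, 38 among genes well above background on at least 2 of the arrays compared and 2830 with array weights. Settings chosen after seeing the data gave 14 among genes above background on all 5 arrays, tested alone (10 higher and 4 lower), 7 and, with normexp and quantile, 43 in the sample channel, and 28 with control 1 as the one control. The deposited matrix, over 20738 genes, gave 75, of which 65 were higher and 10 lower in the off livers, against 27 and 85. Scan day could not be fitted here, since without the slide of TGFα off 1 no chain of groups with shared days linked the off livers to the controls. The 19 genes of the 3 against 3 ratio became 203 with normexp, 173 with scan day as a block (0 shared), 0 in a fit of the 2 groups alone, 3 with slide as a random block, 37 without the filter and 9 with the replicate block. The 2 genes of the sample channel became 0 in a fit of the 2 groups alone, 5 with slide as a random block, 80 with the replicate block and 50 with normexp and quantile. The 89 genes against c-Myc off became 44 with normexp, 59 with the sex score and 2 in the sample channel. The replicate block gave 162, 100 and 244 genes in the comparisons of TGFα off 2 and 3 with control, c-Myc off and TGFα off for 12 weeks. Leaving out 1 array gave 7 to 110 genes against control, 1 to 117 in the 3 against 3 ratio, 0 to 5 in its sample channel, 3 to 61 against c-Myc off and 6 to 151 against TGFα off for 12 weeks. TGFα off 2 was the array left out at the lowest of the ranges against control, c-Myc off and TGFα off for 12 weeks. Over the 22 settings of the comparison of TGFα off 2 and 3 with control, Per1 passed in 22 (2.53 to 3.3), Slc25a32 in 19 and Noct in 18. In the 3 against 3 ratio Per1 was not called with scan day as a block or in a fit of the 2 groups alone. The sign turned for Shprh (-0.94) and Blcap (0.08) as a mean over probes, and in the sample channel for Hmx2 (0.24), Klk1b24 (0.7) and Rasgef1a (0.32), with normexp and quantile at 0.09 for Hmx2, 0.01 for Sec1, 0.05 for Klk1b24 and 0.09 for Rasgef1a. The cause was not tested. Signal over background limits the falls, since 37 of 85 were above background in the sample channel on no array.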
